A study of Homo sapiens with 10 samples.

Results

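The genes described here are the transcriptional coactivators YAP1 and WWTR1 (the gene for TAZ), 3 TEAD factors that carry them to DNA, and 5 of their textbook target genes, in MIA PaCa-2 cells given hydroxyprogesterone caproate (HPC). They were chosen by symbol from the deposited expression table: YAP1, WWTR1, TEAD1, TEAD3, TEAD4, CCN1, CCN2, ANKRD1, AMOTL2 and LATS2. All 10 were found among the 16734 genes of the table, each in a single row. MIA PaCa-2 is an established human pancreatic ductal adenocarcinoma line, and HPC is a synthetic progestin. The first group is MIA PaCa-2 cells in 10 µM HPC for 24 h (5 libraries), and the second is the same cells for 24 h with DMSO, the solvent, in matching volume (5 libraries). All cells were grown in the same serum-containing medium, and poly(A) RNA was sequenced. Labelled as biological replicates, the libraries carry no record of culture dates or batches, and the p-values therefore cover library-to-library spread, part of which may be technical.

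YAP and TAZ are the effectors of the Hippo pathway, which couples cell density, shape and tension to growth. When the kinases encoded by STK3 and STK4, and below them LATS1 and LATS2, are active, YAP and TAZ are phosphorylated, held in the cytoplasm and degraded. When the kinases are quiet they enter the nucleus, bind TEAD factors and switch on genes such as CCN1, CCN2 and ANKRD1. Some of the targets, among them LATS2 and AMOTL2, encode inhibitors of YAP and so close a feedback loop. RNA levels do not report the phosphorylation or the location of the proteins, which were not measured here.

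Levels are in FPKM, a unit scaled to gene length and library size, which allows levels to be set side by side between genes. The HPC libraries held 65851176 to 74477071 recovered reads and the DMSO libraries 71602736 to 82218527. Changes are log2 fold changes of FPKM + 0.1, HPC over DMSO, fitted with limma over 9150 genes (those reaching 1 FPKM in 5 or more libraries), and called at a Benjamini-Hochberg adjusted p under 0.05. Of these genes 87.7% were called, 42.9% as higher and 44.8% as lower, so a call alone does not set a gene apart. Genes encoded by the mitochondrial chromosome held 14.8% ± 0.717 of the FPKM in HPC and 22.6% ± 0.704 in DMSO (SD, n = 5 each). Scaling the libraries to the sum over all other genes put the median log2 fold change of tested genes at -0.19 in place of -0.01, with 63.4% of the calls lower in place of 51.1%. Counts and calls of the genes described here that changed under this scaling are given beside the main ones. As for the identity of the cells, KRT8, KRT18 and KRT19 were expressed, whereas EPCAM and CDH1, further epithelial markers, stayed at or below 0.0111 FPKM in every library. The summed epithelial markers ranged from 213 to 229 FPKM in HPC and from 182 to 199 FPKM in DMSO. Within that sum KRT8 and KRT18 were higher in HPC, while KRT19 was lower, at 10.1 ± 1.11 FPKM in HPC and 24.0 ± 1.69 FPKM in DMSO, and KRT7 averaged 0.0352 FPKM in HPC and 0.226 FPKM in DMSO. The range of VIM, a mesenchymal marker, was 322 to 346 FPKM in HPC and 682 to 718 FPKM in DMSO. Of 5 fibroblast markers, DCN and LUM were at or near 0, and the sum of 0.762 to 1.05 FPKM in HPC and 24.5 to 26.7 FPKM in DMSO was almost all COL1A2. The leukocyte markers PTPRC and CD74 summed to at most 0.123 FPKM in HPC and 0.249 FPKM in DMSO, and the endothelial markers PECAM1 and CDH5 to 0.0229 FPKM at most in HPC and to between 1.4 and 1.5 FPKM, nearly all CDH5, in DMSO. The part of these shifts in the results below was not tested.

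After 24 h in HPC the matricellular protein genes CCN1 and CCN2 were the most changed of the 9 genes tested (all but ANKRD1). CCN1 was higher by 5.21-fold. CCN2 was higher by 7.03-fold with 0.1 FPKM added to each value and by 10.2-fold in pooled reads, and its size depends on the scale, as given below. Both coactivators, TEAD1 and TEAD4 moved by less than 1.5-fold. Of the 9 members that passed the filter, 6 were higher (CCN1, CCN2, TEAD1, TEAD3, TEAD4 and LATS2), 2 were lower (YAP1 and AMOTL2) and WWTR1 did not pass the test. With the non-mitochondrial sum 5 were higher and 3 lower, as TEAD4 lost its call and WWTR1 was called lower. Under that scaling 2929 of 9186 tested genes were higher and 5077 lower. ANKRD1 was under the filter. At least 1.5-fold changes were found for 3 members, all higher (CCN1, CCN2 and TEAD3), where 16.9% of all tested genes were higher and 20.3% lower by that much (37.2% in either direction). AMOTL2 fell just short, at 1.499-fold lower. With the non-mitochondrial sum TEAD3 was under 1.5-fold (log2 fold change 0.55) and AMOTL2 was lower by more than 1.5-fold (-0.74), so this count rests on the scaling. In 8 of the 9 the HPC and DMSO values did not overlap, as in 79.6% of all tested genes. CCN2 passed the filter only through its 5 HPC libraries, so these counts describe the members and are no support for a change of the group. In RNA from whole cultures, fewer cells with a transcript and less of it per cell cannot be told apart.

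**Figure D1:**
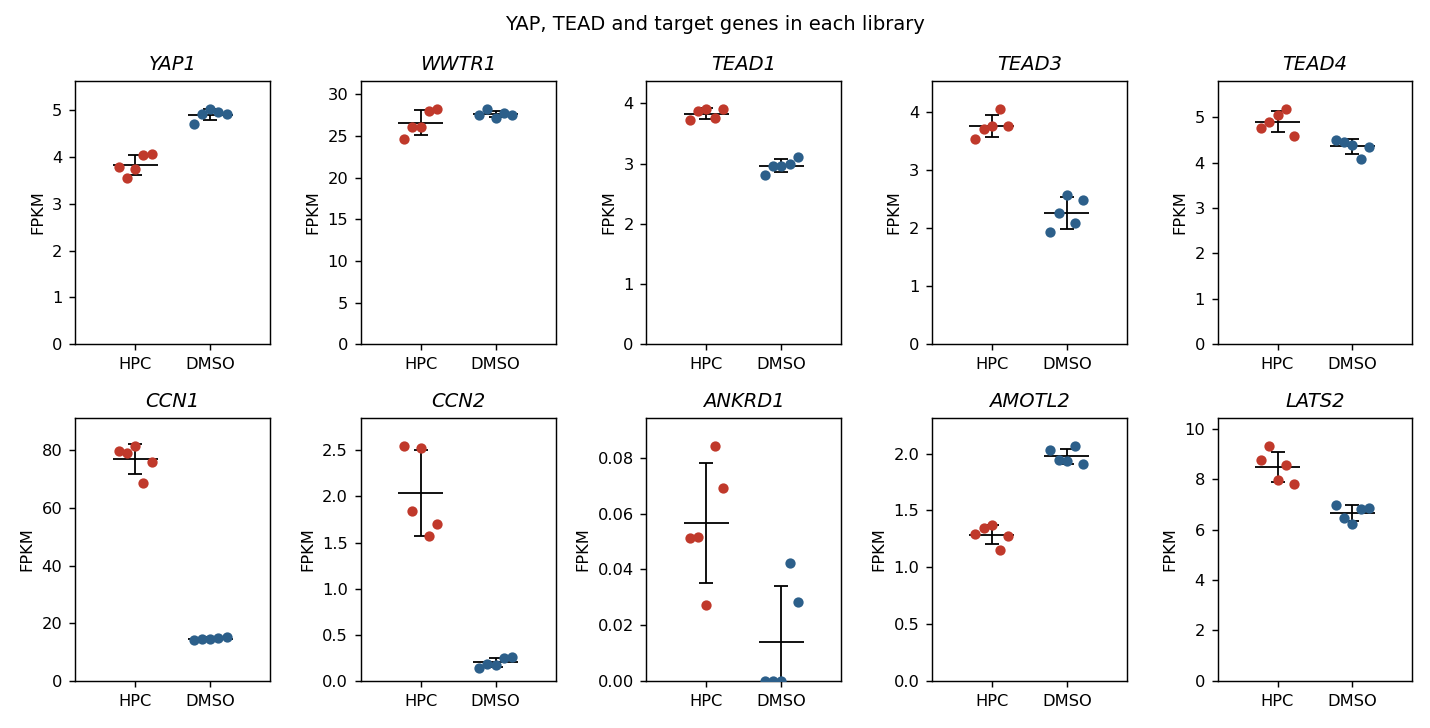
FPKM of each of the 10 genes (vertical axes, from 0) in the 5 HPC libraries (red) and the 5 DMSO libraries (blue). Points are libraries, and the black lines are the mean ± SD (the lower bar of ANKRD1 in DMSO is cut at 0); only WWTR1 and ANKRD1 show groups that overlap.

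YAP1, which encodes the coactivator YAP (chromosome 11, 102110461 to 102233423, GRCh38), was lower in HPC. It measured 3.79, 3.56, 3.74, 4.04 and 4.07 FPKM in HPC libraries 1 to 5, against 4.70, 4.92, 5.02, 4.96 and 4.91 FPKM in DMSO libraries 1 to 5. Every HPC value lay under every DMSO value. This was a log2 fold change of -0.35 with an SE of 0.039 (limma, adjusted p = 1.68e-06), a level at 78.3% of that in DMSO. Exons of an antisense gene cover 9.97% of the YAP1 exon bases, and the strand setting of the read counting was not stated, so reads of the overlapping genes cannot be told apart.

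WWTR1 (chromosome 3, 149517235 to 149736714), which encodes the YAP paralog TAZ, was by far the more abundant coactivator and did not pass the test. It measured 24.6, 26.1, 26.1, 28.0 and 28.2 FPKM in HPC, against 27.5, 28.2, 27.2, 27.8 and 27.6 FPKM in DMSO. The HPC libraries spread more widely (SD 1.51 in HPC and 0.381 in DMSO, n = 5 each), with 3 of them under and 2 within the range of the DMSO libraries. The log2 fold change was -0.06 with a 95% interval of -0.13 to 0.02 (limma, adjusted p = 0.128). Scaled to the non-mitochondrial sum it was -0.23 and passed (adjusted p = 5.23e-05), and it also passed without HPC replicate 4 (-0.08, adjusted p = 0.0468) and without HPC replicate 5 (-0.08, adjusted p = 0.0396). Exons of the antisense gene WWTR1-AS1 cover 9.45% of its exon bases.

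A ratio of genes within a library does not depend on how libraries are scaled, apart from the small pseudocount in its logarithm. YAP1 over WWTR1 averaged 0.145 ± 0.00617 in HPC and 0.177 ± 0.00520 in DMSO (SD, n = 5 each), and no HPC library reached the lowest DMSO library. The within-library log2 ratio differed by -0.29 (exact permutation test over libraries, two-sided, p = 0.00794, the smallest these 10 libraries allow, and 0.0132 adjusted over 5 such ratios). YAP1 thus made up 12.6% ± 0.470 of the summed coactivator FPKM in HPC and 15.1% ± 0.375 in DMSO.

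The TEAD genes encode the DNA-binding partners of YAP and TAZ, and the tested members of the family shifted in unequal amounts. TEAD3 (chromosome 6, 35473597 to 35497076) changed the most of the 3 chosen TEAD genes. It measured 3.53, 3.71, 3.76, 4.05 and 3.75 FPKM in HPC, against 1.92, 2.25, 2.57, 2.08 and 2.48 FPKM in DMSO. The lowest HPC library lay above the highest DMSO library, and the log2 fold change was 0.72, with an SE of 0.070 (limma, adjusted p = 3.93e-07), or 1.64-fold.

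TEAD1 (chromosome 11, 12674591 to 12944483), a widely expressed member of the family, was higher as well. It measured 3.72, 3.87, 3.90, 3.75 and 3.90 FPKM in HPC, against 2.81, 2.96, 2.96, 2.99 and 3.10 FPKM in DMSO. The groups did not overlap, and the log2 fold change was 0.36, with an SE of 0.033 (limma, adjusted p = 1.99e-07), or 0.20 with the non-mitochondrial sum, where it still passed.

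TEAD4 (chromosome 12, 2959330 to 3040673) showed the smallest change that passed. It measured 4.77, 4.89, 5.06, 5.18 and 4.60 FPKM in HPC, against 4.50, 4.47, 4.40, 4.08 and 4.35 FPKM in DMSO. The lowest HPC library stood just above the highest DMSO library. The log2 fold change of 0.16, with an SE of 0.039 (limma, adjusted p = 0.0013) became 2.92e-04, with adjusted p = 0.994, under the non-mitochondrial scaling, so the call rests on the scaling.

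TEAD2, the remaining TEAD gene, which is not among the 10, went the other way. It measured 1.22, 1.25, 1.32, 1.48 and 1.54 FPKM in HPC, against 2.22, 2.07, 2.45, 2.24 and 2.29 FPKM in DMSO (log2 fold change -0.69, with an SE of 0.065, limma, adjusted p = 2.97e-07). With all 4 TEADs added up, the sum was 13.9 ± 0.444 FPKM in HPC and 11.8 ± 0.442 FPKM in DMSO (SD, n = 5 each). TEAD2 supplied 9.84% ± 0.875 of that sum in HPC and 19.0% ± 0.881 in DMSO, whereas TEAD3 supplied 27.1% ± 0.524 in HPC and 19.1% ± 1.60 in DMSO. TEAD4 was the largest part in both groups, at 35.4% ± 1.16 in HPC and 36.9% ± 1.71 in DMSO.

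Within libraries, TEAD1 over TEAD3 averaged 1.02 ± 0.0520 in HPC and 1.32 ± 0.131 in DMSO, a log2 ratio difference of -0.36 (exact permutation, p = 0.00794, adjusted p = 0.0132, n = 5 each). TEAD1 over TEAD4 averaged 0.783 ± 0.0446 in HPC and 0.681 ± 0.0428 in DMSO, a difference of 0.19 (exact permutation, p = 0.0159, adjusted p = 0.0198, n = 5 each), with HPC higher in 24 of the 25 comparisons of an HPC with a DMSO library. The rise of TEAD3 was therefore larger than that of TEAD1, and that of TEAD1 larger than that of TEAD4, within the same libraries.

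**Figure D2:**
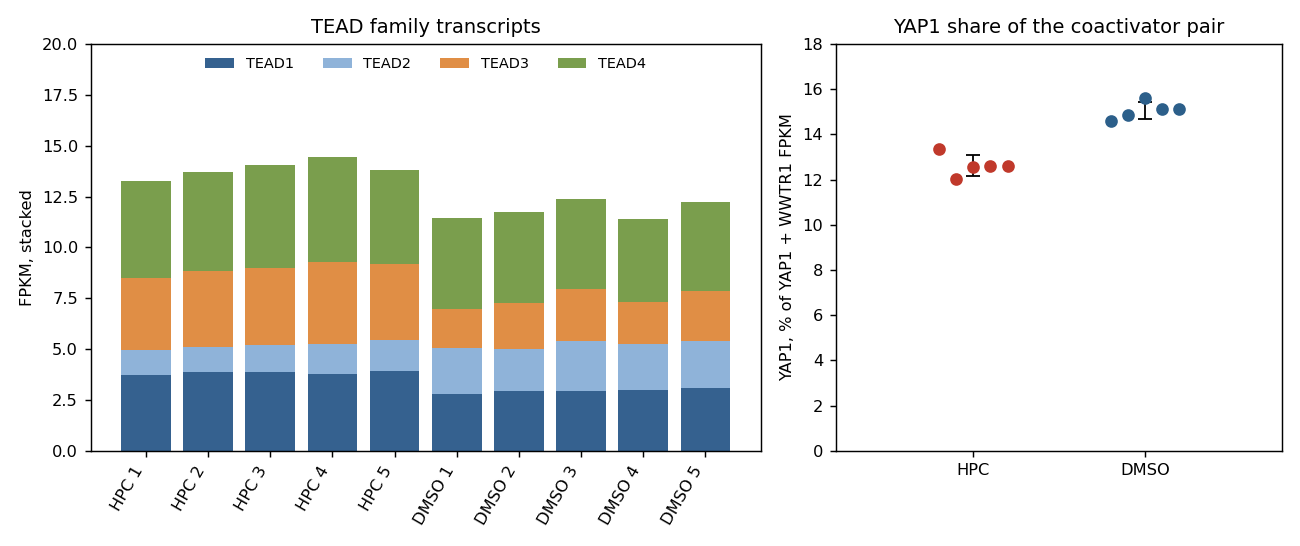
Left, stacked FPKM of TEAD1 to TEAD4 in each library. Right, YAP1 as a percentage of YAP1 plus WWTR1 FPKM, with points for libraries (red HPC, blue DMSO) and bars reaching 1 SD to each side of the mean; the TEAD2 segment is smaller and the TEAD3 segment larger in all 5 HPC libraries, and the YAP1 share lies between 12.0% and 13.3% in HPC and between 14.6% and 15.6% in DMSO.

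CCN1 (chromosome 1, 85580761 to 85583962), formerly CYR61, encodes a secreted matricellular protein that binds integrins and is one of the most used readouts of YAP activity. It measured 79.9, 79.2, 81.6, 68.6 and 76.0 FPKM in HPC, against 14.2, 14.6, 14.4, 14.8 and 15.3 FPKM in DMSO. The groups lay far apart, with HPC library 4 the lowest of its group. The log2 fold change was 2.38, with an SE of 0.042 (limma, adjusted p = 1.97e-14), or 5.21-fold, the 120th highest of the 9150 tested genes. Over all alternative settings it stayed between 2.21 and 2.42.

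CCN2 (chromosome 6, 131948176 to 131951373), formerly CTGF, encodes a related matricellular protein tied to matrix production and fibrosis. It measured 2.55, 1.85, 2.52, 1.58 and 1.70 FPKM in HPC, against 0.144, 0.181, 0.177, 0.245 and 0.263 FPKM in DMSO. The groups did not overlap, and HPC library 4 was again the lowest of its group. These values stand for 243 to 439 reads per HPC library and 25 to 44 reads per DMSO library. The log2 fold change was 2.81, with an SE of 0.15 (limma, adjusted p = 1.73e-09). With 0.1 FPKM added this was the 73rd highest of the tested genes. CCN2 passed the filter only through its HPC libraries, so its p-value and rank add no support beyond the values themselves.

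Because CCN2 was low in DMSO, the size of its change depended on the value added before the logarithm. With 1 FPKM added the log2 fold change was 1.33, with 0.01 added 3.28, and in limma's voom model of the recovered reads 3.34, and it passed the test in each. The pooled reads, 1650 in HPC and 175 in DMSO, gave a ratio of 10.2 after scaling to library totals, with a 95% exact binomial interval of 8.75 to 12.0 that covers counting error only. An antisense gene covers 8.34% of its exon bases. Of the other CCN genes, CCN4, CCN5 and CCN6 were under the filter with mean levels of at most 0.0077 FPKM, and CCN3 was not analysed here.

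CCN1 remained far more abundant than CCN2 in both groups. CCN1 FPKM over CCN2 FPKM ranged from 31.4 to 44.7 in HPC libraries and from 58.1 to 98.9 in DMSO libraries, without overlap. On the log2 scale with 0.1 FPKM added the ratio differed by -0.43 (exact permutation, p = 0.00794, adjusted p = 0.0132, n = 5 each), and with 1 FPKM added the difference turned to 0.99, so its direction on that scale is set by the pseudocount.

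The promoter of CCN2 is shown because its TEAD motifs are a textbook example of how the complex finds a target. Those of ANKRD1 and AMOTL2 are shown because, among the target genes with a window, they also hold such a motif. CCN1 had no matched window, so its promoter was not searched. TEAD factors recognise GGAATG, or CATTCC on the other strand, and these letters are in capitals in the 250 bases before each gene start (RefSeq, GRCh38.p14, written along the gene's strand).
CCN2, chr6:131951373-131951622, minus strand: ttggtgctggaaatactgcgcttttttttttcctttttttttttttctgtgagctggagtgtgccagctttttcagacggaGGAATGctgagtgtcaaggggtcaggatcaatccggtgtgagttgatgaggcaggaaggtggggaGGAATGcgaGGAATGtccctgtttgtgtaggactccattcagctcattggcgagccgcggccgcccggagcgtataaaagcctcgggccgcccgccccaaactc
ANKRD1, chr10:90921088-90921337, minus strand: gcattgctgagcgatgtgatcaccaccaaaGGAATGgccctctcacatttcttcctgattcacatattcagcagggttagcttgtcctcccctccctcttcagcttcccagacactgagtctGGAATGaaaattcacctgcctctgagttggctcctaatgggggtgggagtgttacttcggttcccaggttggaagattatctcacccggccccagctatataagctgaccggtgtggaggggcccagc
AMOTL2, downstream of 2 listed starts, chr3:134374448-134374697, minus strand: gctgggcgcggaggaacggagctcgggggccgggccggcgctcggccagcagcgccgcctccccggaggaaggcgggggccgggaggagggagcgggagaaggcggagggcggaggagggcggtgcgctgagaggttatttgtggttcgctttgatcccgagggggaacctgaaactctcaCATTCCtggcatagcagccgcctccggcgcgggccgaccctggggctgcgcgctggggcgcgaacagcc
CCN2 holds 3 copies, beginning at -169, -104 and -95 from the gene start, and the last pair are separated by 3 bases. ANKRD1 holds 2 copies, at -220 and -128. It also holds 1 match to TGANTCA, the pattern searched for as the AP-1 motif with any base at N. This match, with the letters TGATTCA, begins at -195 and overlaps neither copy. AMOTL2 holds 1 copy on the opposite strand at -69, and its upstream window holds none. Of 35116 such windows in the table, 11.9% hold at least 1 TEAD motif, 0.928% at least 2 and 0.0797% at least 3, and 6.57% hold the AP-1 pattern on either strand. RefSeq windows were matched for 7 of the 10 genes, but not for CCN1, TEAD1 and TEAD4, which were not searched for any motif. Of the 7, YAP1 also holds 1 copy, at -162, whereas the windows of WWTR1, TEAD3 and LATS2 hold none. No CArG box, the motif of serum response factor, was found in any of the 9 windows, against 1.16% of all windows. A match is a description of the letters and not evidence of binding in these cells.

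ANKRD1 (chromosome 10, 90912096 to 90921276) encodes a muscle ankyrin repeat protein and is a sensitive YAP target in many cell types. In these cells it was close to the limit of detection. It measured 0.0512, 0.0517, 0.0271, 0.0842 and 0.0690 FPKM in HPC, against 0, 0, 0, 0.0423 and 0.0282 FPKM in DMSO. These values stand for 7, 7, 4, 11 and 9 reads in HPC and 0, 0, 0, 6 and 4 reads in DMSO, and the groups overlapped. A count of 0 allows up to 3 reads, or 0.0184 to 0.0212 FPKM in the DMSO libraries. The pooled 38 and 10 reads gave a ratio of 4.12 with an exact binomial interval of 2.02 to 9.28, counting error only. ANKRD1 was not part of the fit, and with no filter on low values its log2 fold change was 0.46 (limma, adjusted p = 0.00718).

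AMOTL2 (chromosome 3, 134355874 to 134375479) encodes an angiomotin-family scaffold that binds YAP and keeps it in the cytoplasm, and it is itself a YAP target. Unlike CCN1 and CCN2 it was lower in HPC. It measured 1.30, 1.35, 1.37, 1.15 and 1.27 FPKM in HPC, against 2.03, 1.95, 1.94, 2.07 and 1.91 FPKM in DMSO. The groups did not overlap, and the log2 fold change was -0.58, with an SE of 0.048 (limma, adjusted p = 6.46e-08), with a range of -0.74 to -0.38 over the alternatives. A pseudogene on the same strand overlaps 3.13% of its exon bases. The related gene AMOTL1 had a log2 fold change of -0.19 (limma, adjusted p = 9.58e-04), a gene named after its values were seen, and AMOT was not analysed here.

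LATS2 (chromosome 13, 20973032 to 21061547) encodes the kinase that phosphorylates YAP and TAZ, and belongs to the same feedback. It measured 8.74, 9.31, 7.97, 8.55 and 7.82 FPKM in HPC, against 6.96, 6.46, 6.22, 6.80 and 6.84 FPKM in DMSO. The groups did not overlap, and the log2 fold change was 0.34, with an SE of 0.048 (limma, adjusted p = 1.52e-05), and 0.18, with adjusted p = 0.00328, under the non-mitochondrial scaling. Its paralog LATS1 averaged 3.58 ± 0.179 FPKM in HPC and 3.18 ± 0.0481 FPKM in DMSO (SD, n = 5 each). LATS2 over LATS1 averaged 2.37 ± 0.218 in HPC and 2.09 ± 0.0985 in DMSO (exact permutation, p = 0.0397, adjusted p = 0.0397, n = 5 each), a difference of 0.18 on the log2 scale. With 1 library left out the difference stayed between 0.15 and 0.23, while p was between 0.0635 and 0.0794 in 9 of the 10 cases and 0.0159 without HPC replicate 5. The 2 feedback genes AMOTL2 and LATS2 thus moved in opposite directions.

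**Figure D3:**
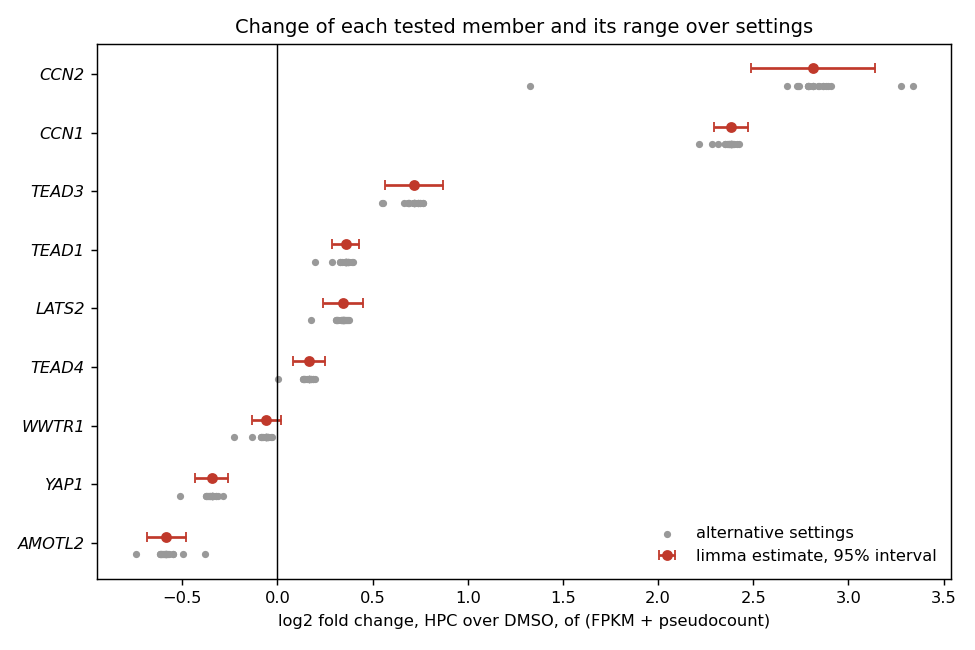
Log2 fold change (HPC over DMSO) of the 9 tested genes, with the limma estimate and its 95% interval in red and the alternative settings as grey points. CCN2 spreads from 1.33 to 3.34 over the settings, the TEAD4 point nearest to 0 and the lowest WWTR1 point are those of the non-mitochondrial sum, and no gene changes sign.

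By level, CCN1 was the most abundant of the 10 in HPC (77.1 ± 5.13 FPKM), followed by WWTR1 (26.6 ± 1.51), LATS2 (8.48 ± 0.605) and TEAD4 (4.90 ± 0.23). YAP1, TEAD1 and TEAD3 came next at 3.84 ± 0.215, 3.83 ± 0.0859 and 3.76 ± 0.185 FPKM and did not differ from each other beyond their spread. CCN2 (2.04 ± 0.463), AMOTL2 (1.29 ± 0.0856) and ANKRD1 (0.0567 ± 0.0214) were the lowest. In DMSO the first places were WWTR1 (27.7 ± 0.381 FPKM), CCN1 (14.7 ± 0.397), LATS2 (6.65 ± 0.304), YAP1 (4.90 ± 0.121) and TEAD4 (4.36 ± 0.166). TEAD1 (2.96 ± 0.103), TEAD3 (2.26 ± 0.269), AMOTL2 (1.98 ± 0.0663), CCN2 (0.202 ± 0.0499) and ANKRD1 (0.0141 ± 0.0199) followed, where TEAD3 and AMOTL2 overlapped (SD, n = 5 throughout).

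Upstream of these genes, the Hippo kinases and their adaptors held calls in both directions. Of 25 listed genes 21 were tested, of which 9 were higher, 8 lower and 4 did not pass, close to the 42.9% higher and 44.8% lower among all tested genes. Their median log2 fold change was -0.03, beside -0.01 over all tested genes. FRMD6, a FERM-domain adaptor that promotes Hippo signalling, was higher at 1.48 ± 0.115 FPKM in HPC and 0.563 ± 0.0154 FPKM in DMSO (log2 fold change 1.25, limma, adjusted p = 1.09e-10), and it passed the filter through its HPC libraries alone. The kinase gene STK4 (0.56), its scaffold SAV1 (0.51) and the upstream adaptor WWC2 (0.55) were also higher on the log2 fold change scale. LIMD1, a LIM protein that restrains the LATS kinases, was lower at 2.00 ± 0.231 FPKM in HPC and 3.60 ± 0.197 FPKM in DMSO (log2 fold change -0.83, limma, adjusted p = 1.34e-07). The tumour suppressor NF2 (-0.46) and the LATS cofactor MOB1A (-0.35) were lower too. With the non-mitochondrial sum the split was 5 higher and 12 lower, beside 2929 higher and 5077 lower of 9186 tested genes. STK3, WWC1 and TAOK3, named after their values were seen, were under the filter.

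The 4 TEADs, the coactivators and their competitors form a list of 9, of which 7 were tested, with 3 higher, 3 lower and 1 that did not pass, again beside 42.9% and 44.8% of all tested genes. With the non-mitochondrial sum 2 were higher and 4 lower, beside 2929 higher and 5077 lower of 9186 tested genes. Among these cofactors, VGLL4, which competes with YAP for TEAD, was lower at 1.84 ± 0.193 FPKM in HPC and 2.39 ± 0.122 FPKM in DMSO (log2 fold change -0.37, limma, adjusted p = 9.49e-05). VGLL3 was under the filter at no more than 0.0141 FPKM on average, and VGLL1 was not analysed here.

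Genes of a published 22-gene YAP/TAZ target signature, which includes the 5 targets above, split in direction. Of the 17 others 11 were tested, of which 6 were higher, 4 lower and 1 did not pass. Among all tested genes 42.9% were higher and 44.8% lower. The median log2 fold change of the 11 was 0.13, beside -0.01 over all tested genes. GADD45A, a growth arrest gene that answers to several stress pathways, measured 71.7, 71.7, 66.6, 56.7 and 61.3 FPKM in HPC, against 6.57, 6.76, 6.40, 6.86 and 6.80 FPKM in DMSO (log2 fold change 3.27, limma, adjusted p = 5.56e-14). F3, which encodes tissue factor, measured 1.10, 1.20, 1.33, 1.42 and 1.07 FPKM in HPC, against 0.389, 0.360, 0.241, 0.253 and 0.318 FPKM in DMSO, and also passed the filter only through HPC (log2 fold change 1.69). Both genes were far above their DMSO levels in every HPC library.

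Other members of the signature fell. MYOF, which encodes the membrane repair protein myoferlin, measured 19.3, 19.7, 20.1, 20.8 and 20.6 FPKM in HPC, against 51.7, 56.0, 57.7, 57.4 and 58.7 FPKM in DMSO (log2 fold change -1.48, limma, adjusted p = 2.34e-13). The exchange factor gene ARHGEF17 had a log2 fold change of -0.70 and CRIM1, which encodes a transmembrane protein that binds bone morphogenetic proteins, of -0.31. With the tested members included (the 5 targets without ANKRD1), 9 of 15 tested genes of the signature were higher and 5 lower. Among all tested genes these shares were 42.9% and 44.8%. With the non-mitochondrial sum 7 were higher and 6 lower, beside 2929 higher and 5077 lower of 9186 tested genes. CCN2 and F3 passed the filter only through HPC and ARHGEF17 only through DMSO. These counts therefore describe the genes and are no support for a change of the signature.

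CCN1, CCN2 and ANKRD1 are also known targets of serum response factor (SRF) and its MRTF coactivators. SRF itself was higher at 23.4 ± 0.678 FPKM in HPC and 14.7 ± 0.433 FPKM in DMSO, and its target FHL2 was higher by 1.58 on the log2 scale. The coactivator gene MRTFB, named after its values were seen, was lower at 0.310 ± 0.0460 FPKM in HPC and 1.17 ± 0.0911 FPKM in DMSO (log2 fold change -1.63, limma, adjusted p = 3.61e-10), and it passed the filter through its DMSO libraries alone. MRTFA, also named after its values were seen, was under the filter. Of the 11 tested genes of this list 2 were higher (SRF and FHL2), 8 were lower, MRTFB among them, and 1 did not pass. Among all tested genes 42.9% were higher and 44.8% lower. The lower ones of the list included VCL (-1.76), CNN2 (-1.19), ACTB (-1.11) and ACTG1 (-0.88). The list had a median log2 fold change of -1.11, beside -0.01 over all tested genes, and CCN1 and CCN2 had 2.38 and 2.81. The activity of SRF and its coactivators was not measured, and their part in the changes of CCN1 and CCN2 was not tested.

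**Figure D4:**
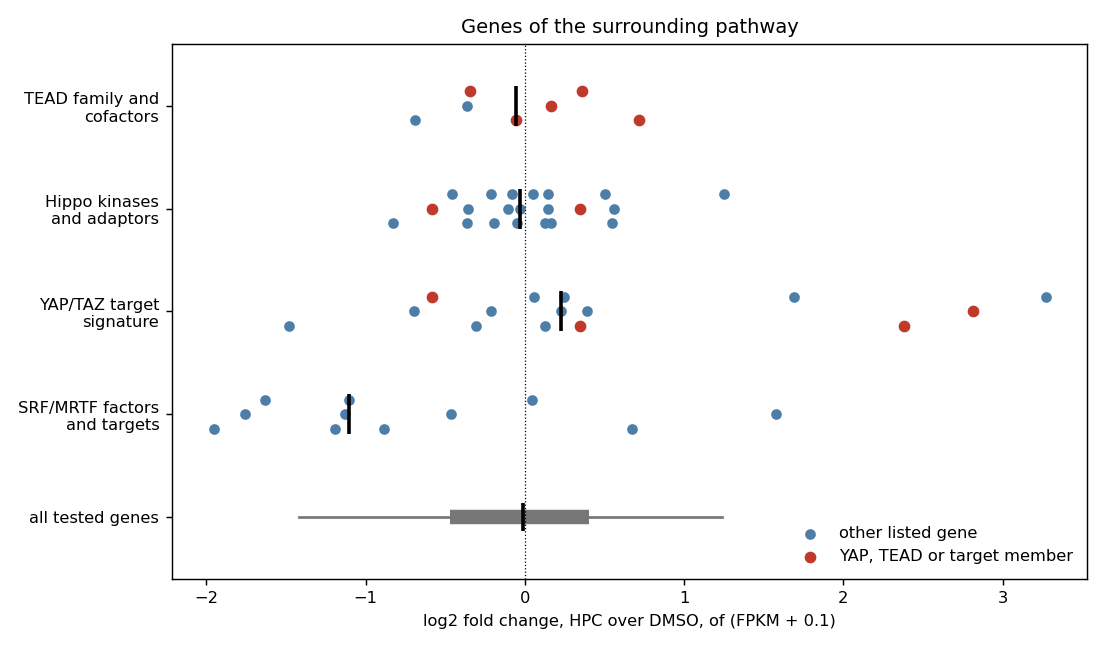
Log2 fold change (HPC over DMSO, of FPKM + 0.1) of each tested gene in 4 lists, with the tested members in red, other genes in blue and list medians as black ticks. The lowest line shows all 9150 tested genes, with the median, a thick bar for the 25th to 75th percentile (-0.47 to 0.40) and a thin one for the 5th to 95th (-1.42 to 1.24). CCN1, CCN2, GADD45A, F3, FHL2 and FRMD6 lie beyond its right end, and MYOF, MRTFB, VCL and MYL9 beyond its left end. MRTFB and MYL9 were named after their values were seen.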

How the data were processed

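Poly(A) RNA of MIA PaCa-2 cells was sequenced on an Illumina NovaSeq instrument as paired-end reads, per the labels' protocols. The authors deposited 1 table of FPKM per gene and library. Tools listed in the submitters' processing notes, without roles, are fastp 0.23.2, edgeR and STAR 2.7.7a, and the build is GRCh38.p13. The counter, its strand setting and the annotation used are not given in these sources. The 10 genes and the 5 gene lists around them were chosen with earlier results of these data known.

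Log2(FPKM + 0.1) was fitted with limma 3.58.1 in R 4.3.3 (two-sided, empirical Bayes with trend and robust options, all 10 libraries, no replicate block), with p-values adjusted by Benjamini-Hochberg over all 9150 tested genes. The pseudocount understates the change of low genes. Whole reads were recovered for 15208 of 15208 genes above 0 in at least 3 libraries, within 0.0001 of a read, and used for depth and a voom alternative. Ratios were tested with exact permutation over 252 assignments of libraries. Genes were named by a rule: all members, all genes of lists of up to 9, and the 4 called genes with the smallest p in each direction of longer lists; others are marked. Coordinates are from GENCODE 29 on GRCh38, and promoter windows and their sequences from RefSeq. The procedure was tested on simulated data. Python 3.11.15 was used with SciPy 1.17.1 and matplotlib 3.10.9.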

Additional observations from a re-analysis of the deposited data

How the results depend on the processing

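Apart from WWTR1 and TEAD4, each of the 7 other tested members kept its direction and its call under every alternative that tested it, and no member turned direction. WWTR1 moved to the called side with rescaling to the same FPKM sum (-0.09), with this rescaling and a replicate block, with the non-mitochondrial sum (-0.23), with quantile normalization (-0.13) and without HPC replicate 4 or 5. A filter of at least 5 FPKM tested 4240 genes and 3 members. It called 1969 genes higher and 1836 lower, and 2 members higher and 0 lower, because the others were no longer tested. The same filter called 4 Hippo genes higher and 1 lower, 0 and 0 of the TEAD list, 5 and 2 of the signature and 1 CCN gene. The non-mitochondrial sum called 5 Hippo genes higher and 12 lower, and 2929 higher and 5077 lower of 9186 tested genes. It reduced TEAD4 to 2.92e-04, and without a filter 4 SRF genes were higher. The CCN1 over CCN2 ratio turned from -0.43 to 0.99 with 1 FPKM added.

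With a replicate block 3892 genes were higher and 4077 lower, and no member changed its call. Of the 5 same-numbered pairs of libraries 2 deviated together with a correlation above 0.1 (range -0.06 to 0.20), where pairs of other numbers ranged from -0.20 to 0.145. These correlations do not settle whether the libraries are paired. The labels do not say that the numbers pair the cultures, so the main fit has no block. For the ratios a paired exact sign-flip test cannot go below p = 0.0625, so none can pass. The paired differences were -0.43 (CCN1/CCN2), -0.29 (YAP1/WWTR1), -0.36 (TEAD1/TEAD3), 0.19 (TEAD1/TEAD4) and 0.18 (LATS2/LATS1). The LATS2/LATS1 difference ranged from 0.15 to 0.23 when 1 library was left out. Depth limits ANKRD1, with at most 11 reads in a library, and the DMSO level of CCN2.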
